A study of Mus musculus with 18 samples.

Results

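The genes described here are 8 genes of the red blood cell: the embryonic globins Hbb-y, Hbb-bh1 and Hba-x, the adult globins Hbb-b1, Hba-a1 and Hba-a2, and the red cell genes Alas2 and Slc4a1. They were taken by name from the authors' deposited coexpression table, where they are 8 of 23890 genes. Each of the 8 was paired with 1 probe set of the expression table, and all 8 are among the 23773 named genes tested. Expression had been measured on 18 microarrays in spinal cord cells from mouse embryos, sorted by flow cytometry at ages around the change of radial glia into astrocytes. All groups came from Aldh1l1-GFP mice on a Swiss-Webster background, whose transgene makes GFP where Aldh1l1, an enzyme gene of astrocytes and their precursors, is active; no drug or further allele is named. The sorted GFP-positive cells (GFP cells) comprised 3 arrays of E13.5 embryos, 2 of E14.5 and 3 of a late age (2 of E17.5 and 1 of E18.5). All live cells sorted from whole cord comprised 3 arrays at each age, again with 2 of E17.5 and 1 of E18.5 at the late age. The treatment text of the labels speaks of GFP-negative cells where the titles speak of all live cells; the titles were followed, and by them the all-live sort includes the GFP cells. The labels number biological replicates without naming animals or litters, so the spread behind each p-value is that between these samples and may be technical in part. A further array, which its own title calls mislabeled, entered no comparison made here.

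Haemoglobin is assembled from alpha-like and beta-like globin chains, each of which holds a haem group. The mouse genes of the beta type lie in a cluster on chromosome 7 and those of the alpha type in a cluster on chromosome 11. The first red cells of the mouse embryo, the primitive erythrocytes of the yolk sac, carry the embryonic chains, and among these the beta-like Hbb-bh1 is known to give way to Hbb-y as the cells mature. Definitive red cells, made in the fetal liver from mid-gestation, carry the adult chains, and they take over the circulation before birth. This replacement is the embryonic globin switch. Spinal cord tissue makes no red cells of its own; blood reaches it through its vessels.

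The stretches of DNA just upstream of 3 of the globin genes are shown because these genes stand for the 2 sides of the switch: Hbb-y and Hba-x on the embryonic side and Hba-a1 on the adult side. Of the 8 genes, 5 (Hbb-y, Hba-x, Hba-a1, Hba-a2 and Alas2) have an entry in the RefSeq promoter table used here, which is of build GRCm38.p6; Hbb-bh1, Hbb-b1 and Slc4a1 do not. Each sequence is the 250 bases before the gene start, read on the strand of the gene. Capitals mark every match, on either strand, to CACCC or to CCAAT (proximal motifs of globin genes), to GATAA (a motif of GATA factors), or to ATAAA or to TATAA (letters of a TATA box), and the last 2 of these overlap in Hba-x. The regions are chr7:103853208-103853457 on the minus strand for Hbb-y, chr11:32276350-32276599 on the plus strand for Hba-x and chr11:32283422-32283671 on the plus strand for Hba-a1.
Hbb-y: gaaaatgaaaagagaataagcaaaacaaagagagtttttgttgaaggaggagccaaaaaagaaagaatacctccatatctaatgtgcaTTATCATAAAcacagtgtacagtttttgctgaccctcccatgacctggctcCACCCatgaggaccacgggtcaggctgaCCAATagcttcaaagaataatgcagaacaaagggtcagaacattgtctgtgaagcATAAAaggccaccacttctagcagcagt
Hba-x: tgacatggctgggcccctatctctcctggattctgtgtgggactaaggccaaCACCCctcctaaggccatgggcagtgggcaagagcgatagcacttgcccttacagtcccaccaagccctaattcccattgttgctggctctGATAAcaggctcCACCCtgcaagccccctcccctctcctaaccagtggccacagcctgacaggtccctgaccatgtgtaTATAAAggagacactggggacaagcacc
Hba-a1: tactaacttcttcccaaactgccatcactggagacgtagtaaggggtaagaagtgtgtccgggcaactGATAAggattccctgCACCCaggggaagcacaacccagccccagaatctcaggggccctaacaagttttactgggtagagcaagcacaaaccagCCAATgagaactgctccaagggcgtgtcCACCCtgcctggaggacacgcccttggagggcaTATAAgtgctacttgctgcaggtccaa
Counted from the gene start, with -1 the base just before it, a TATA-like match lay close to the start in all 3: ATAAA began at -28 in Hbb-y, TATAA at -28 in Hba-x and TATAA at -27 in Hba-a1. CACCC, the letters bound by Kruppel-like factors such as Klf1, occurred once or more in each of the 3, at -111 in Hbb-y, at -198 and -95 in Hba-x and at -167 and -60 in Hba-a1. GATAA, the letters of GATA factors, occurred once in each, on the opposite strand at -162 in Hbb-y and on the gene's strand at -107 in Hba-x and -182 in Hba-a1. CCAAT was found in Hbb-y (at -83) and Hba-a1 (at -88), with no match in the 250 bases of Hba-x. These are short motifs: among 32536 promoters of the same length, 52.1% hold CACCC, 33.8% CCAAT, 22.5% GATAA, 37.2% ATAAA and 22.7% TATAA. The Hba-a2 region matched that of Hba-a1 at 247 of the 247 bases that can be aligned without a gap, at an offset of 3 bases. Hbb-y and Hba-x shared 32% of bases at their best offset without a gap. That is near the shares of pairs with Alas2, which is no globin gene: 29.6% for Hbb-y and 27.3% for Hba-x.

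Expression is given in log2 units as deposited. Array medians lay between 7.73 and 7.82, lower quartiles between 6.78 and 6.93 and the highest probe set between 13.83 and 14.02, and arrays of 1 group correlated at 0.985 to 0.994 over the named genes. Adult globin values of all live cells stood close to the top of that scale, where differences may be compressed. So did their Hbb-y values at E13.5 and E14.5 (12.91 to 13.24). Globin values of GFP cells lay between 5.43 and 8.92, where the files give no measure of background. The sort was checked with the transgene's own gene: Aldh1l1 had 9.85 to 10.08 in GFP cells at E13.5, against 7.60 to 7.90 in all live cells, and 9.93 to 10.28 in GFP cells at the late age, against 8.91 to 9.39 in all live cells. Slc1a3, a glutamate transporter of radial glia and astrocytes, was likewise higher in every GFP array than in any all-live array of the same age.

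The first comparison set GFP cells against all live cells of the same age. At E13.5 all 6 globins were lower in GFP cells than in all live cells by factors of 8.36 to 81.4, and Alas2 and Slc4a1 were lower by smaller factors. At the late age the adult globins and Alas2 were lower in GFP cells, and the embryonic globins and Slc4a1 did not pass the test. In such bulk samples fewer cells of a type and less RNA per cell cannot be told apart.

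Among the embryonic globins, Hbb-y encodes the embryonic beta-like chain called epsilon-y. Its log2 values at E13.5 were 6.39, 7.24 and 6.57 in GFP cells, against 12.92, 13.08 and 13.24 in all live cells. At E14.5 they were 6.67 and 6.32 in GFP cells, against 12.91, 13.003 and 13.03 in all live cells. In late embryos they were 6.84, 6.99 and 6.65 in GFP cells, against 7.46, 7.76 and 6.30 in all live cells, the last value being that of the E18.5 array. The sorts stood far apart at the first 2 ages and overlapped at the late age, where the E18.5 array of all live cells was below all 3 GFP arrays. The difference of GFP cells from all live cells was -6.35 ± 0.27 at E13.5 (limma's standard error, 81.4-fold lower, adjusted p = 1.9e-10), -6.49 ± 0.31 at E14.5 (89.8-fold lower, adjusted p = 6.9e-10) and -0.35 ± 0.27 in late embryos (adjusted p = 0.53, 95% interval -0.93 to 0.23). At E13.5 and at E14.5 this was the lowest difference among the 23773 genes. Without the E18.5 array of all live cells the late difference was -0.78 and passed (adjusted p = 0.022). Without the E18.5 arrays of both sorts it was -0.69 and did not pass (adjusted p = 0.060). Whether the late difference passed thus depended on which arrays were kept.

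**Figure D1:**
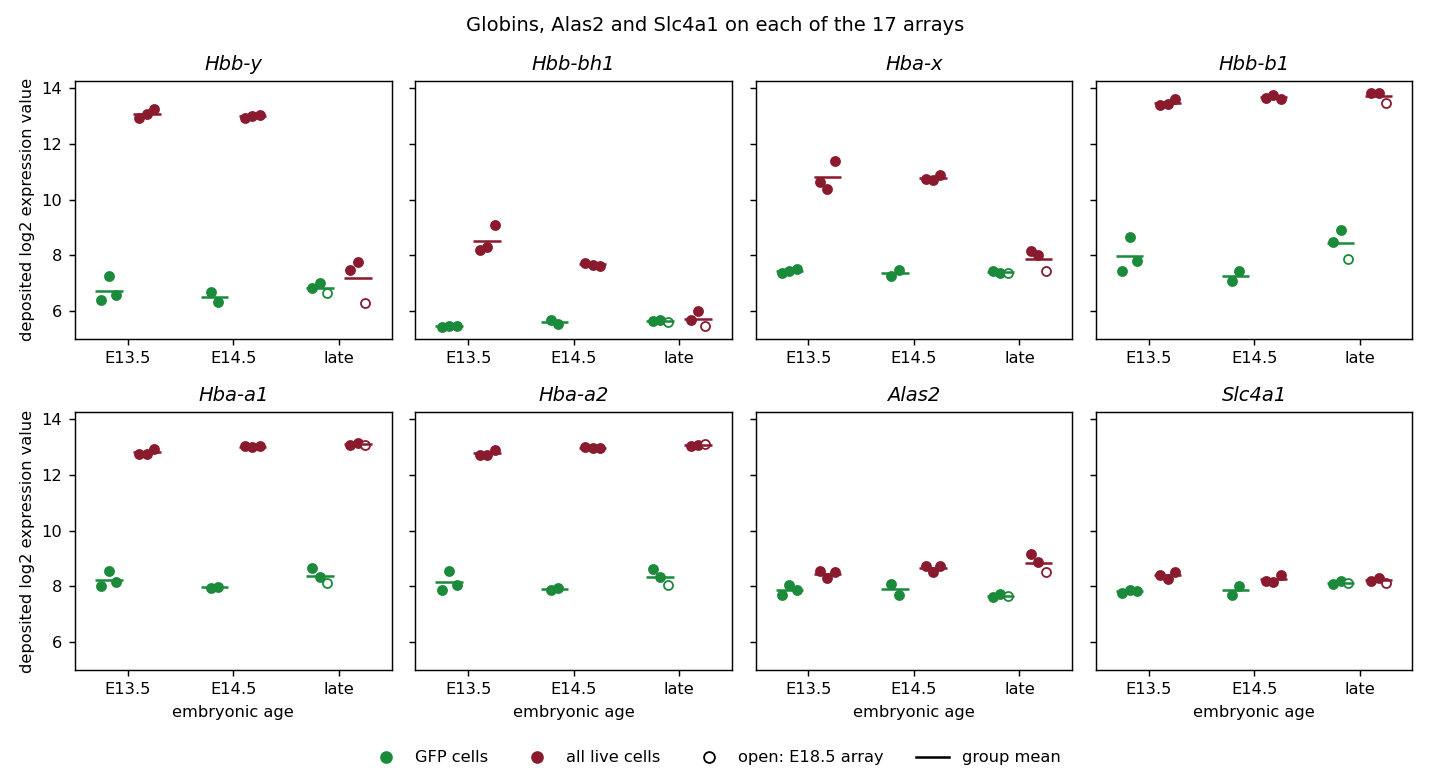
Log2 expression value (vertical axis) of each of the 8 genes on each of the 17 arrays, by age and sort, with GFP cells in green left of all live cells in red, E18.5 arrays as open points and group means as bars. In all live cells Hbb-y lies between 12.91 and 13.24 at the first 2 ages and between 6.30 and 7.76 at the late age, while Hbb-b1 lies between 13.39 and 13.83 at every age.

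Hba-x encodes zeta globin, the embryonic alpha-like chain. It had 7.36, 7.44 and 7.50 in GFP cells at E13.5, against 10.64, 10.39 and 11.37 in all live cells. At E14.5 it had 7.27 and 7.46 in GFP cells, against 10.73, 10.68 and 10.89 in all live cells. In late embryos it had 7.44, 7.35 and 7.38 in GFP cells, against 8.15, 7.99 and 7.44 in all live cells. GFP values stayed within 7.27 to 7.50 on all 8 GFP arrays, and the E18.5 array of all live cells came down to the same level. The difference was -3.37 ± 0.20 at E13.5 (10.3-fold lower, adjusted p = 4.9e-09), -3.40 ± 0.22 at E14.5 (10.6-fold lower, adjusted p = 2.5e-08) and -0.47 ± 0.20 in late embryos (adjusted p = 0.16). Without the E18.5 array of all live cells the late difference was -0.68 (adjusted p = 0.040), and without the E18.5 arrays of both sorts -0.68 (adjusted p = 0.068).

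Hbb-bh1 encodes the beta-like chain of the youngest primitive red cells. It had 5.43, 5.45 and 5.47 in GFP cells at E13.5, against 8.17, 8.28 and 9.09 in all live cells. At E14.5 it had 5.68 and 5.55 in GFP cells, against 7.74, 7.66 and 7.61 in all live cells. In late embryos it had 5.64, 5.68 and 5.60 in GFP cells, against 5.66, 5.99 and 5.45 in all live cells. All-live values lay lower at E14.5 than at E13.5, and the sorts overlapped only at the late age. The GFP difference was -3.06 ± 0.17 at E13.5 (8.36-fold lower, adjusted p = 4.5e-09), -2.05 ± 0.20 at E14.5 (4.15-fold lower, adjusted p = 9.0e-07) and -0.06 ± 0.17 in late embryos (adjusted p = 0.90).

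The adult beta chain gene Hbb-b1 kept its contrast at all ages. Its values at E13.5 were 7.43, 8.66 and 7.79 in GFP cells, against 13.39, 13.44 and 13.62 in all live cells. At E14.5 they were 7.09 and 7.42 in GFP cells, against 13.64, 13.75 and 13.62 in all live cells, and at the late age 8.47, 8.92 and 7.88 in GFP cells, against 13.82, 13.83 and 13.48 in all live cells. The groups never overlapped, and the spread among GFP arrays of 1 age was several times that among all-live arrays at E13.5 (SD 0.63 in GFP cells and 0.12 in all live cells, n = 3 each). GFP cells differed by -5.52 ± 0.25 at E13.5 (45.8-fold lower, adjusted p = 3.8e-10), -6.41 ± 0.28 at E14.5 (85.1-fold lower, adjusted p = 5.2e-10) and -5.29 ± 0.25 in late embryos (39-fold lower, adjusted p = 9.4e-10). The late difference was the lowest of all 23773 genes. The adult beta globin copies of the mouse are near identical, and Hbb-bs, Hbb-bt and Hbb-b2 are not among the genes named here, so signal of those copies on the Hbb-b1 probe set cannot be told apart from Hbb-b1.

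Hba-a1 and Hba-a2 encode the same adult alpha chain from near-identical genes, and their probe sets differed by -0.04 to 0.13 on the 17 arrays with a correlation of 1.00, so they count as 1 measurement. Hba-a1 had 8.01, 8.55 and 8.17 in GFP cells at E13.5, against 12.75, 12.75 and 12.94 in all live cells. At E14.5 it had 7.94 and 7.99 in GFP cells, against 13.02, 13.003 and 13.02 in all live cells. In late embryos it had 8.67, 8.33 and 8.12 in GFP cells, against 13.09, 13.13 and 13.08 in all live cells. The sorts never overlapped, and each stayed within a narrow band. Its difference was -4.57 ± 0.13 at E13.5 (23.8-fold lower), -5.05 ± 0.15 at E14.5 (33.1-fold lower) and -4.73 ± 0.13 in late embryos (26.5-fold lower), each with an adjusted p of 2.1e-12 or less. Hba-a2 stood at -4.62 ± 0.14, -5.08 ± 0.16 and -4.73 ± 0.14 at the 3 ages.

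Of the GFP arrays at E13.5, replicate 2 was the highest for Hbb-y, Hbb-b1, Hba-a1, Hba-a2, Alas2 and Slc4a1. Its Hbb-b1 value of 8.66 was still far below the lowest all-live array of E13.5 and E14.5 (13.39). The 2 GFP arrays of E14.5 held the lowest 2 Hba-a1 values of the 8 GFP arrays, 7.94 and 7.99. Without replicate 2 the E13.5 difference of Hbb-b1 was -5.87, and that of Hbb-y was -6.60.

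Alas2 encodes the red cell form of the first enzyme of haem synthesis. It had 7.69, 8.05 and 7.87 in GFP cells at E13.5, against 8.55, 8.30 and 8.51 in all live cells. At E14.5 it had 8.09 and 7.71 in GFP cells, against 8.72, 8.51 and 8.74 in all live cells. In late embryos it had 7.63, 7.73 and 7.65 in GFP cells, against 9.15, 8.87 and 8.53 in all live cells. The sorts did not overlap at any age. Its difference was -0.58 ± 0.14 at E13.5 (1.5-fold lower, adjusted p = 0.0068), -0.76 ± 0.16 at E14.5 (1.69-fold lower, adjusted p = 0.0022) and -1.18 ± 0.14 in late embryos (2.27-fold lower, adjusted p = 3.2e-05). The E14.5 call was lost without GFP replicate 2 (-0.56, adjusted p = 0.069).

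Slc4a1 encodes band 3, the anion exchanger of the red cell membrane. It had 7.77, 7.88 and 7.85 in GFP cells at E13.5, against 8.41, 8.28 and 8.51 in all live cells. At E14.5 it had 7.71 and 8.02 in GFP cells, against 8.21, 8.18 and 8.43 in all live cells. In late embryos it had 8.08, 8.19 and 8.12 in GFP cells, against 8.20, 8.32 and 8.13 in all live cells. The sorts were apart at the first 2 ages and overlapped at the late age. Its difference was -0.57 ± 0.09 at E13.5 (1.48-fold lower, adjusted p = 0.00034), -0.41 ± 0.11 at E14.5 (1.32-fold lower, adjusted p = 0.011) and -0.09 ± 0.09 in late embryos (adjusted p = 0.68). The E14.5 call was lost without GFP replicate 1 (-0.25, adjusted p = 0.24) and without all-live replicate 3 (-0.33, adjusted p = 0.055), with a replicate block (-0.33, adjusted p = 0.092) and with the E14.5 arrays fitted alone (-0.41, adjusted p = 0.061).

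In counts, 8 of the 8 genes were lower in GFP cells at E13.5, where 8.0% of all genes tested were lower. At E14.5 it was 8 of 8, where 8.22% of all genes were. In late embryos it was 4 of 8 (Hbb-b1, Hba-a1, Hba-a2 and Alas2), where 4.69% of all genes were. The arrays of both sorts did not overlap for 8 of 8 genes at E13.5 (40.0% of all genes), 8 of 8 at E14.5 (45.9%) and the same 4 of 8 in late embryos (21.5%). With Hba-a1 and Hba-a2 taken as 1 measurement, the counts of lower genes were 7 of 7, 7 of 7 and 3 of 7 in order of age. The median of all genes was near 0 in each comparison: -0.04 at E13.5, -0.03 at E14.5 and 0.04 in late embryos.

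**Figure D2:**
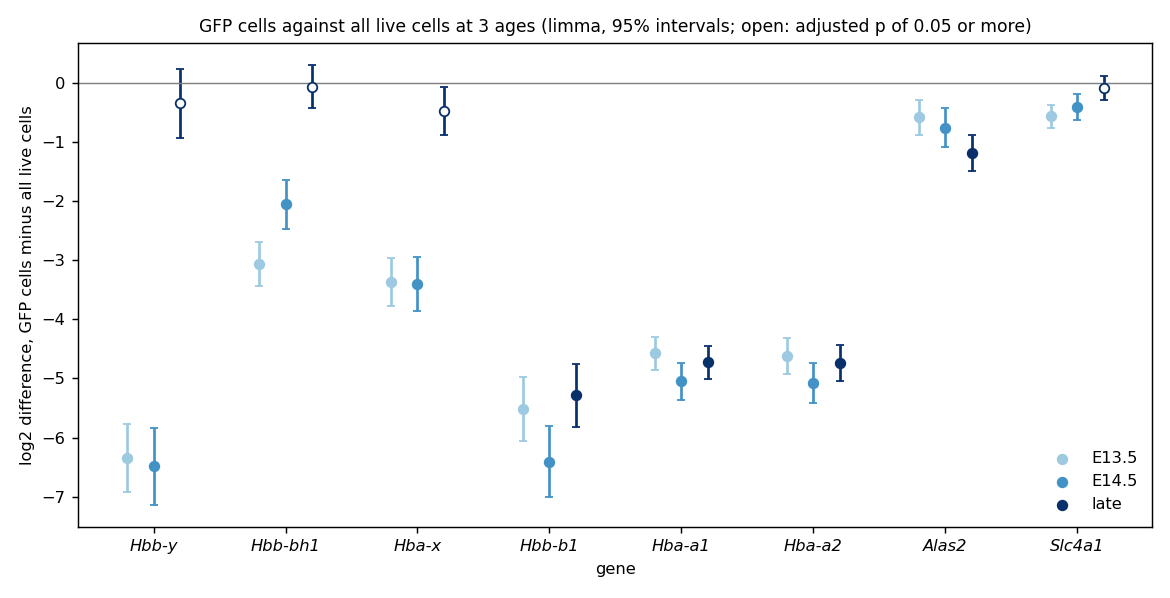
Log2 difference of GFP cells from all live cells (vertical axis) for the 8 genes at E13.5, E14.5 and the late age, with limma's 95% intervals; open points did not pass the adjusted threshold of 0.05. The embryonic globins and Slc4a1 approach 0 at the late age, the adult globins stay between -6.41 and -4.57, and Alas2 lies at -0.58, -0.76 and -1.18 in order of age.

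The second comparison set late all-live cells against those of E13.5. The 3 embryonic globins fell between E13.5 and the late age, Hbb-y by a factor of 60.1, Hba-x by 7.67 and Hbb-bh1 by 7.03. The adult globins, at the top of the array scale throughout, did not pass the test. Hbb-y changed by -5.91 ± 0.27 (adjusted p = 2.6e-10), the lowest difference of all 23773 genes. Hba-x changed by -2.94 ± 0.20 (adjusted p = 1.1e-08) and Hbb-bh1 by -2.81 ± 0.17 (adjusted p = 5.8e-09), the sixth and eighth lowest. These 3 of 8 genes (3 of 7 with the alpha pair as 1 measurement) stand beside 9.99% of all genes that were lower at the late age.

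The 5 other genes moved by 0.40 or less and did not pass. Late minus E13.5 in all live cells, Hbb-b1 differed by 0.23 ± 0.25 (adjusted p = 0.62, 95% interval -0.31 to 0.77), Hba-a1 by 0.28 ± 0.13 (adjusted p = 0.15) and Hba-a2 by 0.30 ± 0.14 (adjusted p = 0.17). The Hba-a1 values of the late arrays, 13.09, 13.13 and 13.08, were each above the E13.5 values of 12.75, 12.75 and 12.94. In 5 of the 8 genes (the embryonic globins, Hba-a1 and Hba-a2) late and E13.5 arrays did not overlap (4 of 7 with the alpha pair as 1), as in 33.6% of all genes. Alas2 differed by 0.40 ± 0.14 (adjusted p = 0.059) and passed the test without the E18.5 arrays (0.56, adjusted p = 0.0089). Slc4a1 differed by -0.18 ± 0.09 (adjusted p = 0.21). Genes higher at the late age made up 10.2% of all genes; by limma none of the 8 was among them, and 2 of the 8 had an unadjusted p under 0.05 with a higher value.

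The steps of age were also read separately. From E13.5 to E14.5, Hbb-bh1 was the 1 gene of the 8 to pass, at 1.80-fold lower in E14.5 cells (-0.85 ± 0.17, adjusted p = 0.024), where 0.408% of all genes were lower. That call was lost when any 1 of the 3 E14.5 arrays was left out (adjusted p 0.061 to 0.11, differences -0.88 to -0.81) or when the E13.5 and E14.5 arrays were fitted alone (adjusted p = 0.085). All-live replicate 3 of E13.5 had the highest Hbb-bh1 (9.09) and Hba-x (11.37) of all assigned arrays, and without it Hbb-bh1 differed by -0.56. Hbb-y differed by -0.10 ± 0.27 (adjusted p = 0.98) and Hba-x by -0.03 ± 0.20 (adjusted p = 0.99) over that step. All-live Hbb-y lay at 12.91 to 13.24 at both ages, close to the top of the array scale. Differences may be compressed there, so the flat Hbb-y step does not date its fall. From E14.5 to the late age, the change of Hbb-y was -5.81 ± 0.27 (56.1-fold lower, adjusted p = 1.8e-09), that of Hba-x -2.91 ± 0.20 (7.50-fold lower, adjusted p = 2.9e-08) and that of Hbb-bh1 -1.97 ± 0.17 (3.91-fold lower, adjusted p = 5.2e-07), and 8.90% of all genes were lower. Both steps use the same E14.5 arrays, and the comparisons with E13.5 use the same late arrays.

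Within the late group the E18.5 array of all live cells had the lowest value of each embryonic globin: 6.30 for Hbb-y, against 7.46 and 7.76 at E17.5, 7.44 for Hba-x, against 8.15 and 7.99, and 5.45 for Hbb-bh1, against 5.66 and 5.99. It also had the lowest Hbb-b1 (13.48, against 13.82 and 13.83) and Alas2 (8.53, against 9.15 and 8.87), and the highest Hba-a2 (13.12, against 13.05 and 13.06). With 1 array at E18.5 this difference has no replicate check. Without the E18.5 arrays the late change of Hbb-y from E13.5 was -5.47.

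In GFP cells the same span of age moved 1 of the 8 genes. Slc4a1 was higher at the late age by 0.30 ± 0.09 (adjusted p = 0.041), where 7.35% of all genes were higher, and the call was lost under 9 of 13 alternatives, among them quantile normalization (0.25, adjusted p = 0.084) and each single GFP array of either age left out (adjusted p 0.056 to 0.14). With each array shifted to a common median, the share of higher genes among those called in this comparison was 31.8%, against 45% on the deposited values, and Slc4a1 had an adjusted p of 0.076. Hbb-y differed by 0.09 ± 0.27 (adjusted p = 0.86), Hba-x by -0.04 ± 0.20 (adjusted p = 0.91) and Hbb-bh1 by 0.19 ± 0.17 (adjusted p = 0.51). Hbb-b1 differed by 0.46 ± 0.25 (adjusted p = 0.25), and by 0.81 (adjusted p = 0.021) without GFP replicate 2 of E13.5.

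**Figure D3:**
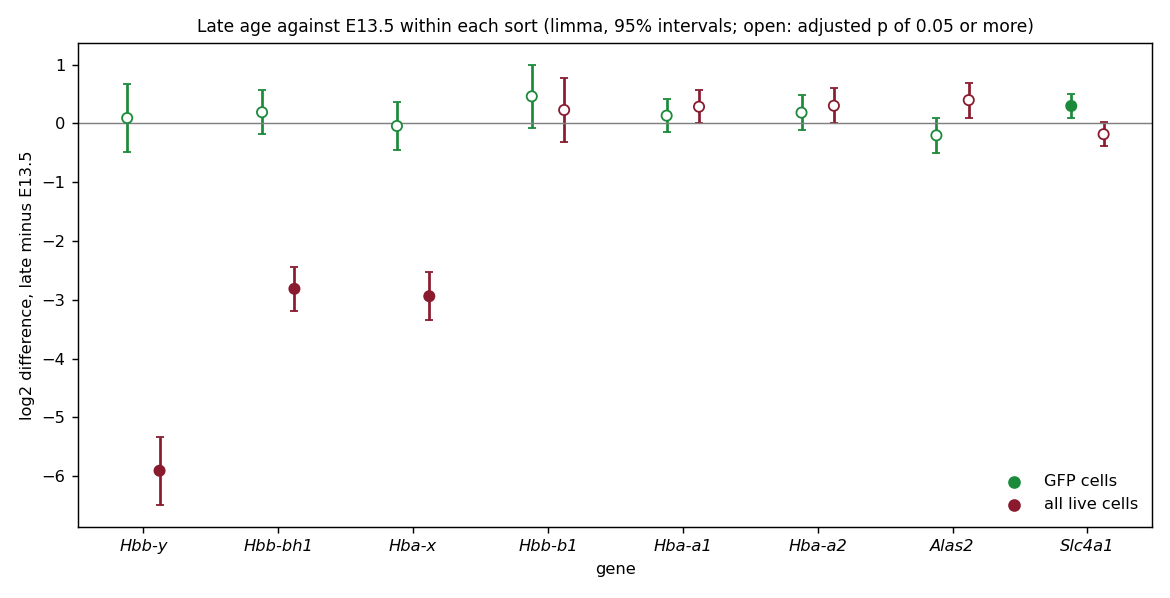
Log2 difference of the late age from E13.5 (vertical axis) for the 8 genes, in GFP cells (green) and in all live cells (red), with limma's 95% intervals; open points did not pass the adjusted threshold of 0.05. In all live cells Hbb-y lies at -5.91, Hbb-bh1 at -2.81 and Hba-x at -2.94, and all other points lie between -0.20 and 0.46.

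Whether the contrast of GFP cells with all live cells itself differed between the late age and E13.5 was tested as an interaction. The difference was 6.0005 ± 0.39 for Hbb-y (adjusted p = 3.7e-07), 3.00 ± 0.25 for Hbb-bh1 (adjusted p = 3.3e-06) and 2.90 ± 0.28 for Hba-x (adjusted p = 1.4e-05), and these were the 3 highest of all 23773 genes. Genes with a higher contrast made up 1.62% of all genes. Slc4a1 stood at 0.48 ± 0.13 (adjusted p = 0.051) and Alas2 at -0.60 ± 0.20 (adjusted p = 0.11), and neither passed. Under 5 alternatives Slc4a1 did pass (adjusted p 0.031 to 0.0496), as did Alas2 without the E18.5 arrays (-0.75, adjusted p = 0.042) and without the E18.5 array of all live cells alone (-0.76, adjusted p = 0.023). Hbb-b1 (0.23 ± 0.36), Hba-a1 (-0.15 ± 0.19) and Hba-a2 (-0.12 ± 0.20) did not pass. The interaction is built from the same arrays as the comparisons above and adds the test of the difference alone.

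The switch was also read within each array, as the log2 value of an embryonic globin minus that of an adult globin of the same cluster. The level of this index depends on the probes. In all live cells the adult globins lay near the top of the array scale, where differences may be compressed, so the index adds little to the embryonic globin alone (-5.91 for Hbb-y between the late age and E13.5) and is given as a description. For Hbb-y minus Hbb-b1, all live cells had -0.47, -0.36 and -0.38 at E13.5, -0.73, -0.75 and -0.58 at E14.5 and -6.37, -6.07 and -7.18 at the late age. The arrays of the late age were all far below those of the first 2 ages, and those of E14.5 lay just below those of E13.5. The late mean differed from the E13.5 mean by -6.14 (two-sided exact permutation p = 0.1, the smallest that 3 arrays against 3 can give). In GFP cells the index was -1.63, -1.93 and -1.24 at the late age, against -1.04, -1.42 and -1.22 at E13.5, a change of -0.37 (exact permutation p = 0.2).

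The other pairs moved the same way in all live cells. Hba-x minus Hba-a1 was -2.01 ± 0.40 at E13.5, -2.25 ± 0.10 at E14.5 and -5.24 ± 0.36 in late embryos (SD, n = 3 each). Hbb-bh1 minus Hbb-b1 was -4.97 ± 0.38, -6.00 ± 0.10 and -8.01 ± 0.16 at the same ages, with no overlap between any 2 of the 3 groups. These pairs are given as values with no test.

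**Figure D4:**
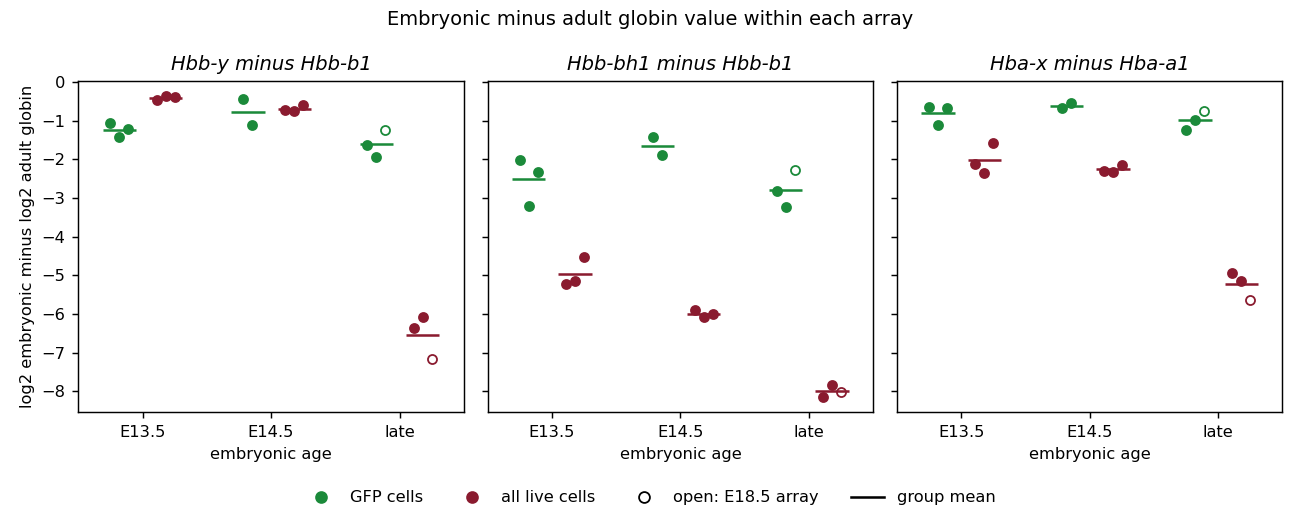
Log2 value of an embryonic globin minus that of an adult globin on the same array (vertical axis) for 3 pairs, by age, with GFP cells in green left of all live cells in red and E18.5 arrays as open points. In all live cells Hbb-y minus Hbb-b1 lies between -0.75 and -0.36 at the first 2 ages and between -7.18 and -6.07 at the late age.

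Other genes of red cells were read from lists chosen by function. Of 6 measured globin chains and relatives outside the 8, 1 was lower in GFP cells at E13.5 (Cygb, cytoglobin, -0.29 ± 0.08), 2 at E14.5 (the largest being Hbb-bh2, a beta-cluster relative, -0.40 ± 0.09) and none passed limma's test at the late age, nor had any an unadjusted p under 0.05 there; the largest late differences were -0.15 (Cygb) and 0.12 (Ngb, neuroglobin). Of 16 genes of haem synthesis and iron supply, 0 passed limma's test at E13.5 and 2 had an unadjusted p under 0.05 (the median was 0.00, and Slc25a37, the mitochondrial iron importer, had -0.40 with an adjusted p of 0.12). At E14.5, 2 were higher in GFP cells (Ppox 0.64 and Urod 0.47, both enzymes of haem synthesis) and 1 lower (Tfrc, the transferrin receptor, -0.52). These 3 of 16 are a share close to that of all genes, of which 4404 of 23773 passed at E14.5 in either direction. At the late age 2 were lower in GFP cells (Tfrc -0.74 and Slc25a37 -0.64). With age in all live cells, 1 of the 16 was higher at the late age than at E13.5 (Fech, which inserts iron to form haem, 0.38 ± 0.08) and 1 lower. Of all genes, 10.2% were higher and 9.99% lower over that span.

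At E13.5, 11.1% of all genes were higher and 8.0% lower in GFP cells. Of 21 genes of the red cell membrane and skeleton, 2 were higher and 7 lower in GFP cells at E13.5, with a median of -0.12. Those that moved most are also expressed outside red cells: Epb41, a linker of the membrane skeleton (-0.87 ± 0.11), Add2, beta-adducin (-0.58 ± 0.09), Slc2a1, the glucose transporter of red cells and brain vessels (0.59 ± 0.10), and Xk (0.58 ± 0.09). Of 19 measured red cell enzymes and chaperones, 2 were higher at E13.5 (Fam210b 0.62 and Cat, catalase, 0.61) and 2 lower (Nt5c3 -0.41 and Hemgn -0.30). Of 18 erythroid transcription factors and signalling genes, 1 was higher (Foxo3 1.12) and 4 lower, led by Kit, a growth factor receptor (-1.22 ± 0.12), and Lmo2 (-0.49 ± 0.15). The factors that define the erythroid lineage gave small differences at E13.5: Gata1 -0.01 (adjusted p = 0.97), Klf1 -0.14 (adjusted p = 0.41) and Epor, the erythropoietin receptor, -0.07 (adjusted p = 0.70). Of other genes known from red cells, Ermap (-0.35, adjusted p = 0.014) was lower in GFP cells at E13.5 and Ahsp was not measured under that name.

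Of 15 genes known to regulate the globin switch in red cells, 2 were higher and 3 lower in GFP cells at E13.5, beside 11.1% and 8.0% of all genes. With age in all live cells, 3 were higher at the late age and 7 lower, with a median of -0.27, against -0.03 for all genes. Of all genes, 10.2% were higher and 9.99% lower with age. Bcl11a, the silencer of embryonic and fetal globins, changed by -1.64 ± 0.10 at the late age, with 9.42 to 9.55 in late all-live arrays, against 10.96 to 11.23 at E13.5. Sox6, its partner in silencing, was higher by 0.74 ± 0.13, Mbd2 was higher by 0.79 ± 0.12, and Igf2bp1 changed by -0.75 ± 0.11. Bcl11a had 10.07 to 10.26 in GFP cells at E13.5, where the globins were low, and neural cells are known to express it. How much of these values came from red cells was not tested.

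**Figure D5:**
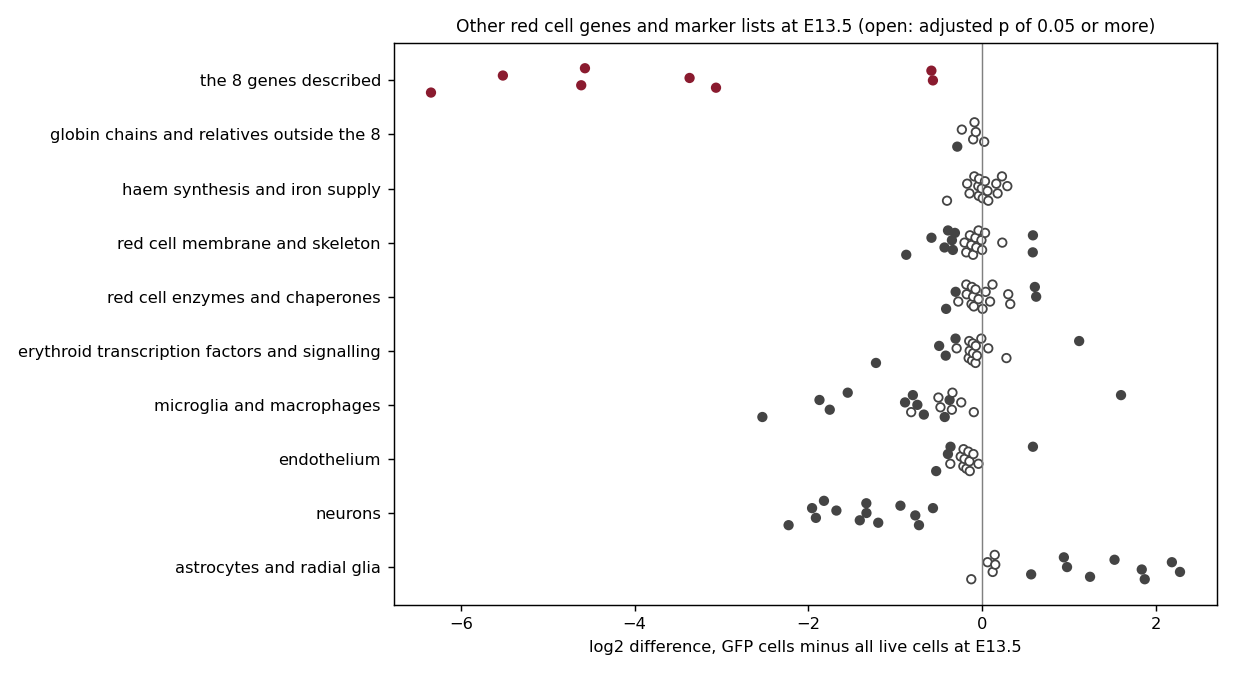
Log2 difference of GFP cells from all live cells at E13.5 (horizontal axis) for the 8 genes (red, top row) and for the measured genes of 9 lists (grey, 1 point per gene); open points did not pass the adjusted threshold of 0.05. The 6 globins lie between -6.35 and -3.06, the 16 haem and iron genes lie between -0.40 and 0.29, and all 13 neuronal genes lie between -2.23 and -0.57.

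Markers of other cells were compared between the sorts too, beside 8.0% of all genes lower and 11.1% higher in GFP cells at E13.5. At that age all 13 measured neuronal genes were lower in GFP cells (median -1.33), 10 of 18 microglial and macrophage genes were lower and 1 higher (median -0.59), and 9 of 14 astrocyte and radial glial genes were higher (median 0.96). Of 15 endothelial genes, 3 were lower and 1 higher, with a median of -0.20. Among other blood cells, 1 of 12 platelet genes (Pf4 -1.05 ± 0.24) and 1 of 11 neutrophil and monocyte genes (S100a9 -0.86 ± 0.17) were lower, shares close to that of all genes. In late embryos, where 4.69% of all genes were lower and 4.61% higher, 10 of 15 endothelial genes were lower in GFP cells (Slco1c1 -2.21 ± 0.12), 14 of 18 microglial genes were lower and 1 higher, and 4 of 11 neutrophil and monocyte genes were lower (S100a9 -1.69 ± 0.17).

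In all live cells the endothelial list had a mean level per array of 8.05 to 8.24 at the late age, against 7.44 to 7.49 at E13.5, and the microglial list 9.16 to 9.76, against 8.14 to 8.20. The neuronal list had 9.86 to 10.02 at the late age, against 11.06 to 11.16 at E13.5. These lists moved with age beside the embryonic globins, and their part in the globin values was not tested. The adult globins of the same arrays differed by 0.30 or less between those ages.

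The measured neighbours of the globin clusters were read the same way. Of the 10 genes that flank the beta cluster on chromosome 7, all of them odorant receptor genes, none passed limma's test at E13.5 (1 had an unadjusted p under 0.05) or E14.5 (0 had), and 1 was higher in GFP cells at the late age (Olfr66, 0.38 ± 0.11). Of the 10 that flank the alpha cluster on chromosome 11, 1 passed across the 3 ages (Sh3pxd2b at E14.5, 0.41 ± 0.12). Nprl3, the neighbour whose introns are known to hold enhancers of alpha globin, differed by 0.05 ± 0.10 at E13.5 (adjusted p = 0.76) and by 0.13 ± 0.10 between the late age and E13.5 in all live cells (adjusted p = 0.41). With age in all live cells, 1 neighbour of each cluster was lower at the late age (Olfr64 -0.36 and Ubtd2 -0.46), beside 9.99% of all genes. Genes higher in GFP cells at the late age made up 4.61% of all genes.

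Correlations over the 17 arrays are given as a description: the arrays share 2 sorts and 3 ages, so r reads the group means as well as the spread within groups. Hbb-b1 correlated at 1.00 with Hba-a1 and with Hba-a2, at 0.89 with Alas2, at 0.80 with Slc4a1, at 0.75 with Hba-x and at 0.72 with Hbb-y. Hbb-y correlated at 0.99 with Hba-x and at 0.97 with Hbb-bh1, at 0.71 with Hba-a1 and at 0.53 with Alas2. Outside the 8, the genes most like Hbb-b1 included 1 transcript that the table names by accession alone (r = 0.98) and then Tac1 (0.97), Arhgap29 (0.96), Dnm3 (0.96), Tes (0.96), Gap43 (0.95), Tafa1 (0.95), Cdr1os (0.95) and Lamb1 (0.95). The genes most like Hbb-y were Mab21l2 (0.98), Runx1t1 (0.98), Mtus2, Exoc5, Pdp1, Lemd1, Pax8, Skor1, Esrrg and Pax2 (0.97 to 0.96). Several of these are genes of neurons: Tac1 encodes a neuropeptide precursor, Gap43 a growth cone protein and Pax2 a transcription factor of spinal interneurons. Pax2 had 7.94 to 8.39 in late all-live arrays, against 9.59 to 9.65 at E13.5, and 7.95 to 8.45 in GFP cells at E13.5. After quantile normalization 9 of the 10 genes most like Hbb-b1 and 7 of the 10 most like Hbb-y were listed again.

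The authors' deposited coexpression table gives for each gene a score per module, kME, the correlation of the gene with the module's profile over the arrays. In the authors' deposited table Hbb-y had its highest score in the blue module (0.962), as did Hba-x (0.931), Hbb-bh1 (0.805) and Slc4a1 (0.652). The adult globins had theirs in the purple module in the authors' deposited table, at 0.875 for Hba-a2, 0.866 for Hba-a1 and 0.831 for Hbb-b1, and Alas2 in the magenta module, at 0.849. Hbb-y was the 1 gene of the 8 listed as a seed of a module. The authors' deposited table assigns genes to modules at a stricter and at a looser cutoff. At the stricter cutoff only Hbb-y and Hba-x of the 8 were assigned, both to the blue module. At the looser cutoff Slc4a1 alone was assigned to none.

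The authors' deposited comparison tables list 6 of the 8 genes among the 1875 listed at E13.5, 5 of the 552 listed at E14.5 and 4 of the 683 listed at the late age. At E13.5 the authors' deposited table gives Hbb-y a fold of GFP over whole of 0.0123 (adjusted p = 0.0055), which is also the fold found here. At E14.5 the authors' deposited table gives 0.0528 for Hbb-y and 0.0514 for Hbb-b1, each with an adjusted p of 0.14, while the fits here, without the array called mislabeled, gave 0.0111 and 0.0118. That array had 13.23 for Hbb-y and 13.64 for Hbb-b1. Both of the authors' E14.5 folds are obtained when it is averaged with the 2 assigned GFP arrays, so their E14.5 comparison included it as GFP cells. At the late age the authors' deposited table lists Hbb-b1, Hba-a1, Hba-a2 and Alas2, the same 4 genes that passed here.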

How the data were processed

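The submitters' processing notes name RMA, oligo, limma and build mm9, without versions or order. The values analysed are the authors' deposited log2 expression values for 35556 probe sets on 18 arrays. The authors' deposited tables also give a linear fold of GFP over whole, with its p-value, and a module score (kME) per gene. Of the per-sample columns there, 6 could not be matched to labels and were not used.

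The expression table names probe sets by number. Names came from matching values within 1e-08: 1875 of 1875 and 552 of 552 genes of the comparison tables, and 23890 of 23890 genes of the module table through kME recomputed on linear values over the 17 assigned arrays (135 matched more than 1 probe set). Of 1959 probe sets named by both kinds of table, 1932 had the same name. For 186 genes with several probe sets the one with the highest mean was used.

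All 17 arrays were fitted with limma 3.58.1 in R 4.3.3 (6 group means, eBayes, 11 residual and 5.44 prior degrees of freedom). The 8 contrasts were adjusted by Benjamini-Hochberg over 23773 genes, with a threshold of 0.05. The code of the fit was run on simulated data with known differences, which does not test its assumptions on these arrays. Values after ± are standard errors unless marked SD. The labels name no batch, and arrays carry no depth, so their number limits the precision. The genes described and the lists were chosen with earlier results of these data known. The rule named all 8 genes, from each list at most 4 genes past the threshold with the largest difference (the 2 largest where none passed), the 10 genes most like Hbb-b1 and Hbb-y, and the checks Aldh1l1 and Slc1a3; list markers and neighbours named beyond it were chosen after their values were seen. Some genes that the rule names are not reported here. Not measured under a matched name were Hbb-bt, Hbb-bs, Hbb-b2, Ahsp, Rbfox3, Elane, Gp1bb and Gp6. Alternatives were quantile or median scaling, a filter on dim genes, the compared arrays alone, an intensity trend, a replicate block, no E18.5 arrays and each array left out. Same-numbered GFP and all-live arrays did not deviate together (r from -0.08 to 0.12), so no block was used.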

Additional observations from a re-analysis of the deposited data

Results flagged for a closer look

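The contrast between GFP cells and all live cells differed between the late age and E13.5 for 3 of the 8 genes by the test of the difference itself: Hbb-y by 6.0005, Hbb-bh1 by 3.00 and Hba-x by 2.90 on the log2 scale, all adjusted p-values from limma being 1.4e-05 or less. In all live cells these embryonic globins were lower at the late age, while in GFP cells they stood at 5.43 to 7.50 on every array of both ages.

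One array, titled as mislabeled, had 4 of the 8 genes above the range of both sorts at its nominal age, E14.5. It had 13.23 for Hbb-y, above the highest E14.5 all-live array (13.03). It had 8.72 for Hbb-bh1, against at most 7.74, 11.33 for Hba-x, against at most 10.89, and 8.80 for Alas2, against at most 8.74. Its Hbb-b1 (13.64) and Slc4a1 (8.25) lay inside the all-live ranges of 13.62 to 13.75 and 8.18 to 8.43, and its Hba-a1 (12.995) and Hba-a2 (12.96) just below the lowest all-live arrays (13.003 and 12.97). Its Aldh1l1 value was 7.13, below the E14.5 GFP arrays (10.10 and 10.12) and the E14.5 all-live arrays (8.20 to 8.36). It is 1 array with no group, and nothing was tested with it.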

How the results depend on the processing

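Of 64 differences (8 genes in 8 comparisons), 31 passed the threshold. Over 390 alternatives of these, 372 kept direction and side, 18 kept the direction and lost the call, and 0 reversed. The losses were for Slc4a1 and Alas2 at E14.5, Hbb-bh1 between E13.5 and E14.5 and Slc4a1 in GFP cells with age; every globin difference between sorts that passed kept its call in every alternative run. The filter on dim genes removed Hbb-bh1 and gave no value for it. Of 450 alternatives of the others, 14 passed the threshold and 15 changed sign, at values from -0.0805 to 0.2517: Hbb-b1 in all live cells from E14.5 to the late age after quantile normalization (-4e-04), Hba-a2 in the interaction without the E18.5 arrays (0.044), and, with single arrays left out, Hbb-bh1 between sorts at the late age (-0.19 to 0.0859), Hba-x from E13.5 to E14.5 (-0.24 to 0.25), Hbb-b1 (-0.0181 to 0.16) and Slc4a1 (-0.10 to 0.0243) from E14.5 to the late age, Hbb-y (-0.0805 to 0.34) and Hba-a1 (-0.0169 to 0.29) in GFP cells with age, and Hbb-b1 (-0.0336 to 0.58), Hba-a1 (-0.30 to 0.0025) and Hba-a2 (-0.26 to 0.0774) in the interaction. The cause was not tested. Genes called between sorts at the late age numbered 1026 with those arrays alone, a fit on fewer arrays, against 2210. Leaving out single arrays gave 2933 to 4181 at E14.5 between sorts, against 4404, and 93 to 173 from E13.5 to E14.5, against 271. The replicate block, on numbers that do not pair the arrays, called 4013, 3411 and 1883 genes between sorts at the 3 ages, against 4541, 4404 and 2210, and changed 1 call of the 8 genes, Slc4a1 at E14.5 (-0.33, adjusted p = 0.092).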

Other observations

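Red cell genes outside the globins were compared between late GFP cells and late all-live cells, where 4.61% of all genes were higher and 4.69% lower. Of 21 membrane and skeleton genes, 1 was higher and 4 lower, and Epb41 again had the lowest value (-1.32). The median difference of these 21 was -0.07, against 0.04 for all genes. Of 19 enzymes and chaperones, 3 were higher, among them the carbonic anhydrases Car2 (1.19) and Car1 (0.34), and 1 was lower, Gpx1, a glutathione peroxidase (-1.06). Car2 is known from glial cells as well as red cells. Of 18 erythroid transcription factors and signalling genes, 2 were lower, Kit (-0.92) and Runx1 (-0.57).

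With age in all live cells, 5 of the 19 enzymes and chaperones were higher at the late age and 3 lower, with Car2 at 1.38, Hebp1, a haem-binding protein, at 0.77 and Prdx2, a red cell peroxiredoxin, at -0.71. Of the 18 erythroid transcription factors and signalling genes, 2 were higher and 3 lower, led by Foxo3 (0.82), Ldb1 (-0.71) and Kit (-0.61). Of all genes, 10.2% were higher and 9.99% lower with age in all live cells. Of 12 platelet genes, 1 was lower (Pf4, -1.09), and of 11 neutrophil and monocyte genes 3 were higher (S100a9, 1.07). The medians of these blood cell lists were -0.06 for platelets and 0.01 for neutrophils and monocytes, against -0.03 for all genes.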
